A study of Mus musculus with 10 samples.

Results

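Left ventricular myocytes of adult C57BL/6 mice after transverse aortic constriction (TAC) were compared with myocytes of control mice. Constriction of the aortic arch raises the pressure against which the left ventricle ejects. The comparison used 6 of the 10 RNA-seq libraries of the series, those titled TAC (3 libraries) and control (3 libraries), and each came from a mouse with its own number. The other 4 libraries, from a CTCF knockout, entered the statistics only through the estimate of the spread and were not compared. In the design text the hearts of TAC mice are called diseased. Control mice carry the genotype label "control", and TAC mice carry no genotype label. The labels give no sham operation, time after surgery, age in weeks, promoter or Cre for either group, so operation, genotype and handling cannot be told apart in this contrast. The polyA label for the molecule and the Ribo-Zero step in the protocol also leave the RNA selection uncertain.

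Each library lists 109869 transcripts of 45882 gene IDs with a level in FPKM, fragments per kilobase of transcript scaled to the size of the library, as made by the authors with Cufflinks. Of the transcripts, 58663 to 64693 lay above 0 in the 6 libraries, and FPKM summed to 582496 to 787063. The files list no read counts, so depth is known only relatively, from the coverage listed per FPKM, whose median lay between 4.05 and 6.09. Transcripts were summed to genes, libraries were rescaled, and 11358 genes with a mean of at least 1 FPKM were tested, of which 10327 code for protein. Levels are given in rescaled FPKM in the order of replicates 1, 2 and 3. Fold changes compare TAC with control on the log2(FPKM + 1) scale, which understates changes of low genes, with their standard error (SE). A gene that rose or fell passed an adjusted p of 0.05 (limma, Benjamini-Hochberg over all tested genes). Xist and genes of the Y chromosome marked 2 control and 1 TAC mice as female, and 1 control and 2 TAC mice as male.

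The labelled cell type was checked against 12 myocyte markers, whose levels summed to 40034 to 44970 FPKM in control and to 35568 to 45270 FPKM in TAC libraries. All 12 were tested, of which Actn2 and Mybpc3 rose and Pln and Tnni3 fell. The Tnni3 call was lost without any single control or TAC library (adjusted p 0.0513 to 0.144, limma). Markers of other cell types were present at far lower levels. Those of fibroblasts summed to 156 to 304 FPKM in control and 301 to 379 FPKM in TAC, of endothelial cells to 191 to 256 and 258 to 302 FPKM, and of macrophages and leukocytes to 88.8 to 133 and 144 to 164 FPKM. The endothelial and macrophage sums of all 3 TAC libraries thus lay above those of all 3 controls. Erythroid genes summed to 288 to 1198 FPKM in control and 952 to 1677 FPKM in TAC, and none of the 5 tested passed the test. Control 1 held the highest control sum, and without it all 5 were called higher in TAC. Lymphocyte markers summed to at most 1.72 FPKM, the adipocyte hormone Lep was listed at 0 in all 6 libraries, and no lymphocyte gene reached the level for testing. Liver genes showed the opposite order. Without transferrin (Trf), the liver list summed to 11.5 to 23.9 FPKM in control and 3.48 to 5.80 FPKM in TAC. Of its other 25 genes, 18 lay lower in every TAC library than in any control library and 0 lay higher. Another count, of genes above 0 in all 3 controls and listed at 0 in all 3 TAC libraries, gave 8. Over all tested genes 15.7% lay lower in every TAC library and 16.0% higher. Only 4 of the 26 liver genes reached the level for testing, and no such share was computed for genes below it. In bulk RNA, fewer cells of a type and less RNA per cell cannot be told apart, and the part of other cells in the differences below was not tested.

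**Figure D1:**
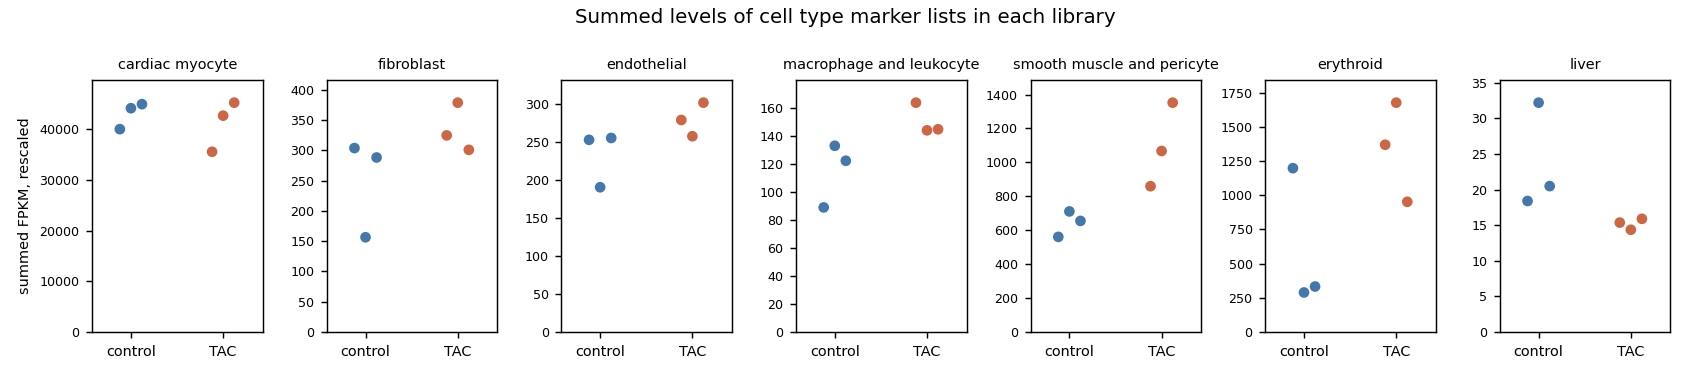
Summed marker levels of each cell type in rescaled FPKM (linear axes from 0, a scale for each panel) for the 3 control and 3 TAC libraries, 1 point per library. The liver panel includes Trf. The myocyte sum lies at 35568 to 45270 FPKM in all 6 libraries, and the macrophage sum is 88.8 to 133 FPKM in control and 144 to 164 FPKM in TAC.

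A pressure load stretches the myocyte, which responds with enlargement and with a return of genes used by the fetal heart. Natriuretic peptides are released in answer to stretch, calcineurin and endothelin signals feed growth, and the adult heart draws most of its energy from fatty acids. These are textbook properties of the loaded heart and were not measured here except as RNA. Against this background the data were read by role, from stretch-responsive genes through contraction, excitation, signalling, fuel use and stress to matrix, and then by the isoforms within genes. For each role, a list of genes is described by how many of its tested members rose or fell. These counts are read beside the background of all 11358 genes, of which 8.08% rose and 7.37% fell with a median log2 fold change of 0.00.

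Of the tested genes 1755 (15.5%) changed, 918 upward and 837 downward, and 204 rose and 111 fell by at least 2-fold on the log2(FPKM + 1) scale. The groups did not overlap in 1729 of the 1755 genes. Over all tested genes, 16.0% lay higher in every TAC than in any control library and 15.7% lay lower. The difference had the same sign in females and in males in 1754 of the 1755. Groups that do not overlap fix this sign in advance, so it does not show that the sexes responded alike. Log2 levels correlated across genes with r of 0.971 to 0.984 within a group and 0.943 to 0.964 between groups, where genes are not independent replicates. With the 6 libraries alone, 665 genes rose and 488 fell, and 1128 of the 1755 were called in the same direction. The count of genes that fell dropped from 837 to 557 without TAC 3 and to 519 without rescaling, where 66.2% of calls were upward against 52.3%.

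The natriuretic peptides and the stretch-induced Ankrd1 were among the genes with the highest fold changes, and 8 of the 14 tested genes in the list of natriuretic peptides and fetal stress genes rose (1 fell, median log2 fold change 1.06). The gene of atrial natriuretic peptide, Nppa (ENSMUSG00000041616), lies on the plus strand of chromosome 4 at 148000722 to 148002079 (mm10). It was at 43.8, 43.8 and 43.3 FPKM in control and at 1016, 1960.3 and 2381 FPKM in TAC. All TAC libraries lay far above the controls, which were nearly equal. The TAC mean was 40.9 times the control mean, and the log2 fold change was 5.23 (SE 0.28, adjusted p = 1.94e-06). Gm13054 overlaps Nppa on the other strand and rose from 22.8, 24.1 and 26.4 to 629, 1158 and 1388 FPKM. Whether counting used the strand is not given in the sources used here, so reads of this pair cannot be told apart.

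Nppb, for brain natriuretic peptide (ENSMUSG00000029019, chromosome 4, 147985788 to 147987205, plus strand), was at 61.5, 148 and 281 FPKM in control and at 762, 1352 and 1573 FPKM in TAC. The controls differed widely among themselves, with control 1 lowest, and still lay below every TAC library. Its log2 fold change was 3.09 (SE 0.45, adjusted p = 0.0011). Ankrd1, an ankyrin repeat protein of the sarcomere and nucleus (ENSMUSG00000024803, chromosome 19, 36111965 to 36119844, minus strand), went from 160.4, 359 and 253 FPKM to 1558, 2569 and 2719 FPKM. Here too control 1 was the lowest, and the log2 fold change was 3.18 (SE 0.27, adjusted p = 5.41e-05). The 250 bases before the RefSeq start site (GRCm38.p6) are shown for Ankrd1 and Nppb, whose windows held matches of motifs searched. Matches of the TEAD motif GGAATG and of AGATAA, the motif of the GATA factors, on either strand are in capitals.
Ankrd1, chr19:36119845-36120094, minus strand: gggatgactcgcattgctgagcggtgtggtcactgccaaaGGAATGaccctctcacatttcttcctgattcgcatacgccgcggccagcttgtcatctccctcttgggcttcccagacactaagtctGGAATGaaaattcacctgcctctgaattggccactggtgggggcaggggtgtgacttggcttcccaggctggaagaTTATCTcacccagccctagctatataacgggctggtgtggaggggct
Nppb, chr4:147985650-147985899, plus strand: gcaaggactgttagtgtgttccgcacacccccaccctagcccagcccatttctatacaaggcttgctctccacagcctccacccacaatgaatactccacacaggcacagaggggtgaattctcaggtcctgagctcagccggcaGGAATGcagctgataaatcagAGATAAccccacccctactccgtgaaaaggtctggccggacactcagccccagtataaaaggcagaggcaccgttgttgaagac
The Ankrd1 window holds 2 TEAD matches and 1 GATA match, and the Nppb window 1 of each. Among 32851 promoter windows of the same length, 12.6% held the TEAD letters and 9.99% the GATA letters. The Nppa window, not shown, held none of the motifs searched, although Nppa rose more than Ankrd1 and Nppb. NFAT core, MEF2, AP-1 and CArG motifs were searched too, without a match in any of these windows. The windows are shown for their matches, so the matches are no test of a shared motif.

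The actin-binding Xin proteins of the intercalated disc followed. Xirp2 was at 101, 88.3 and 97.7 FPKM in control and 375, 394 and 536 FPKM in TAC (log2 fold change 2.16, SE 0.15, adjusted p = 1.3e-05). Xirp1 was at 39.9, 48.2 and 66.6 FPKM and then 109, 185 and 158 FPKM (1.53, adjusted p = 0.00159). Des, the intermediate filament desmin, rose from 403, 554 and 488 to 747, 959.9 and 1247 FPKM (1.01). The non-muscle actinin Actn1 and the deubiquitinase Uchl1 rose by 1.0 and 1.11 on the log2 scale. Acta2, smooth muscle actin, was the member that fell, from 23.3, 35.1 and 35.0 to 15.5, 18.8 and 9.92 FPKM (-1.05, adjusted p = 0.0073); 2 members fell without control 2. The smooth muscle and pericyte list, leaving out Des, summed to 156 to 167 FPKM in control and 105 to 112 FPKM in TAC. Its members moved both ways, with 3 of 11 tested up, 2 down and a median of 0.00. Abcc9 and Acta2 fell, whereas the pericyte marker Cspg4 rose from 2.51, 2.2 and 2.21 to 6.85, 6.33 and 7.49 FPKM, and Mcam and Des rose as well. Myh7, whose slow myosin is the main form in the ventricle of the mouse before birth, did not pass the test. It was at 241, 105 and 236 FPKM in control and 224, 521 and 573 FPKM in TAC (1.16, adjusted p = 0.06), with TAC 1 inside the control range. Mhrt lies on the other strand at the same locus and fell from 131, 63.9 and 43.2 to 38.3, 35.1 and 25.1 FPKM. Myl4, Myl7, Tubb6 and Tagln also missed the threshold, at -0.45, -0.85, 0.30 and 0.00. The atrial list without Nppa summed to 36.9 to 63.3 FPKM in control and 20.6 to 22.5 FPKM in TAC.

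**Figure D2:**
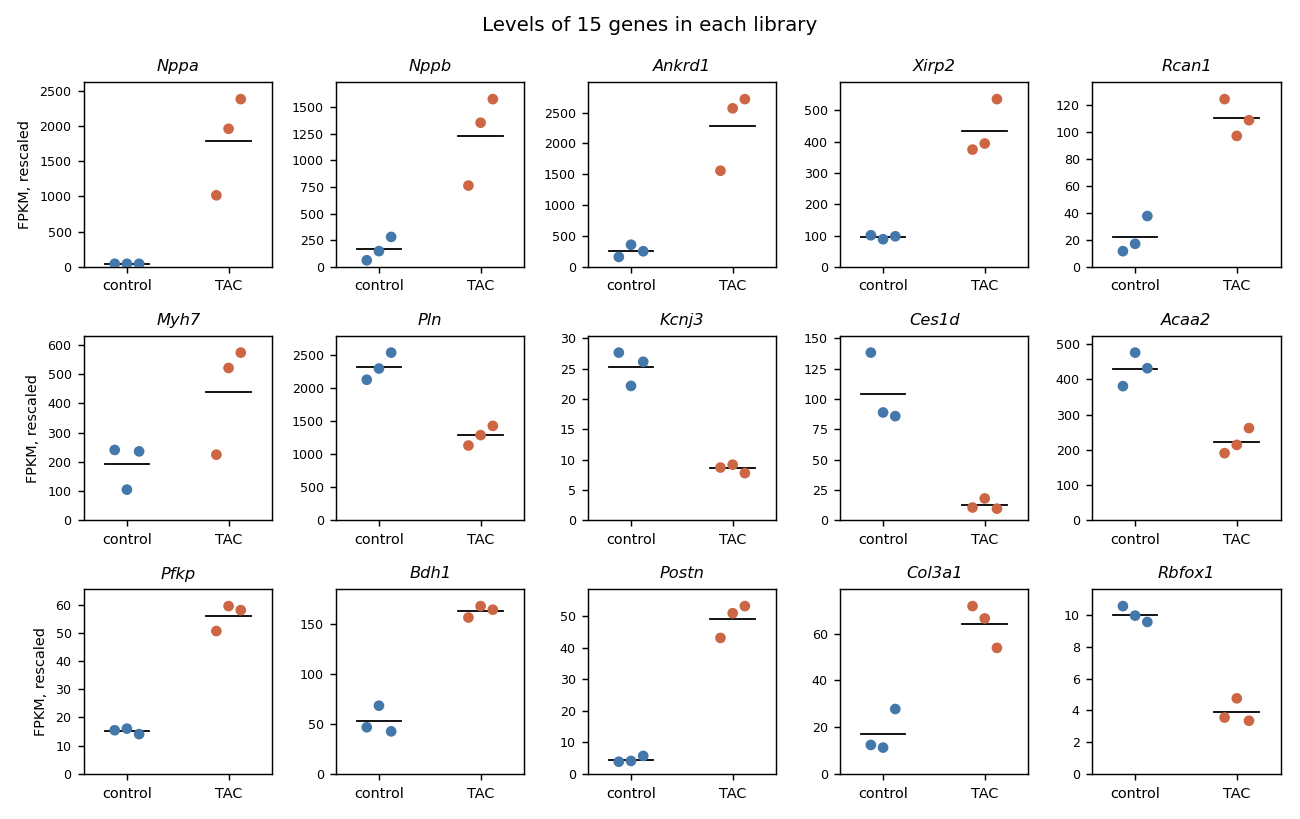
Rescaled FPKM of 15 genes (linear axes from 0, a scale for each panel) in the 3 control and 3 TAC libraries, with 1 point per library and a line at each group's mean. Nppa lies at 43.3 to 43.8 FPKM in control and at 1016 to 2381 FPKM in TAC, and Ces1d falls from 85.9 to 138 FPKM to 9.64 to 18.1 FPKM.

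Proteins of the Z-disc and costamere, which anchor the sarcomere and sense strain, rose in 12 of 21 tested genes and fell in 0, and their median log2 fold change was 0.81. These 12 were Fhl1, Synpo2l, Ankrd23, Myot, Flnc, Nrap, Lmcd1, Csrp3, Pdlim1, Pdlim3, Pdlim5 and Mypn. Fhl1, a four-and-a-half LIM domain protein (ENSMUSG00000023092, chromosome X, 56731787 to 56793346, plus strand), was at 34.6, 29.5 and 25.0 FPKM in control and at 167, 159.6 and 288 FPKM in TAC (log2 fold change 2.70, SE 0.25, adjusted p = 9.05e-05). Synpo2l, an actin-binding protein of the Z-disc (ENSMUSG00000039376, chromosome 14, 20658946 to 20668354, minus strand), went from 19.0, 19.9 and 25.9 to 92.1, 141 and 145 FPKM (2.47, SE 0.20, adjusted p = 4.21e-05). Neither gene's groups overlapped. Myot, the Z-disc protein myotilin, rose from 17.4, 16.1 and 15.1 to 44.5, 63.6 and 45.6 FPKM (1.58). Nrap, which acts in myofibril assembly, rose from 144, 151 and 147 to 289.6, 389 and 389 FPKM (1.25, adjusted p = 0.000155).

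The sarcomere itself was split. Of 22 tested genes 6 rose and 3 fell, with a median of 0.36. Myom1 and Myom2, M-band crosslinkers, rose by 0.76 and 0.77 on the log2 scale, Actn2, the Z-disc actinin, by 0.72, Mybpc3, the cardiac myosin-binding protein, by 0.68, the thin filament ruler Neb by 0.88 from a control level of at most 1.37 FPKM, and Mypn by 0.45. Mylk3, the cardiac myosin light chain kinase, fell from 189, 232 and 182 to 108, 108 and 142 FPKM (-0.75, adjusted p = 0.00713). Myh7b, a slow-type myosin, was at -0.76 and Tnni3, cardiac troponin I, at -0.53 (adjusted p = 0.0474). The 3 that fell became 1 without TAC 3, control 2 or control 3.

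The calcium cycle brings calcium to the filaments and returns it to the sarcoplasmic reticulum. Of its 25 tested genes 2 rose and 5 fell (median -0.03, a sign that turned without rescaling). Pln, phospholamban, the inhibitor of the calcium pump (ENSMUSG00000038583, chromosome 10, 53337686 to 53345999, plus strand), fell from 2120.2, 2289.6 and 2529 to 1128, 1285 and 1425 FPKM. Every TAC library lay below every control (log2 fold change -0.86, SE 0.14, adjusted p = 0.00264), and Cep85l lies on the other strand. Atp2a2, the pump itself, was at 3399.9, 3359 and 3328 FPKM in control and 2453, 2828 and 1819 FPKM in TAC. Its fall of -0.53 stood just inside the threshold (adjusted p = 0.0493) and was lost under 13 of 19 alternatives. The T-type channel Cacna1g fell from 5.45, 5.60 and 4.37 to 1.68, 2.35 and 1.26 FPKM (-1.16, adjusted p = 0.000495). Hrc, which binds calcium in the reticulum, and the channel subunit Cacnb2 fell by 0.68 and by 0.62 on the log2 scale. Casq2, cardiac calsequestrin, rose by 0.65 and Slc8a1, the sodium-calcium exchanger, by 0.44. The 5 that fell became 3 without TAC 1 or without any single control, and the 2 that rose became 1 without TAC 3, control 2 or control 3. Ryr2, the release channel, did not pass (-0.14, adjusted p = 0.786).

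Channels that set the resting and repolarizing currents were mostly on the falling side, with 9 of 25 tested genes down, 2 up and a median of -0.29. Kcnj3, a subunit of the muscarinic potassium channel (ENSMUSG00000026824, chromosome 2, 55435970 to 55598145, plus strand), fell from 27.7, 22.2 and 26.1 to 8.71, 9.18 and 7.79 FPKM (log2 fold change -1.46, SE 0.13, adjusted p = 6.71e-05). Its partner Kcnj5 fell from 13, 12.5 and 10.5 to 6.35, 5.05 and 6.93 FPKM (-0.87). Kcnd2, a pore of the transient outward current, went from 8.37, 7.91 and 8.90 to 3.72, 2.83 and 2.71 FPKM (-1.21), and its accessory subunit Kcnip2 from 72.3, 83.5 and 64.6 to 46.7, 48.8 and 33.3 FPKM (-0.77). The silent subunit Kcnv2 fell by 1.59 on the log2 scale, from 5.13, 2.19 and 3.36 to 0.470, 0.568 and 0.356 FPKM. Kcnj2, the inward rectifier, Kcnh2, the rapid delayed rectifier, Abcc9, the sulfonylurea receptor, and Scn4b, a sodium channel subunit, completed the 9 at -0.74, -0.71, -0.98 and -1.10.

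Adrenergic, muscarinic and cyclic nucleotide genes moved both ways, with 5 of 25 up, 4 down and a median of 0.01. Prkar1a, the regulatory subunit of protein kinase A, rose from 69.7, 84.7 and 95.9 to 167, 187 and 194 FPKM (1.13, SE 0.14, adjusted p = 0.00044). The natriuretic peptide clearance receptor Npr3 rose by 1.06, the phosphodiesterase Pde8a by 0.83, the receptor kinase Grk5 by 0.54 and the stimulatory G protein Gnas by 0.44. The cyclase Adcy6 fell by 0.61 on the log2 scale, the phosphodiesterase Pde4b by 0.62, the receptor Adra1b by 0.65 and the muscarinic receptor Chrm2 by 0.50. The count of 5 became 3 without TAC 1, TAC 3 or control 2.

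In the list of endothelin, angiotensin and calcineurin signalling, 3 of 28 genes rose and 4 fell (median -0.02, turned by the omission of rescaling). The ligand Edn3 rose from 0.571, 0.615 and 0.369 to 6.63, 10.4 and 6.15 FPKM (2.49, SE 0.17, adjusted p = 9.67e-06). Ace, the angiotensin-converting enzyme, rose from 3.08, 2.91 and 2.00 to 8.12, 8.36 and 6.80 FPKM (1.27). Rcan1, a calcineurin regulator whose short form is a target of calcineurin (ENSMUSG00000022951, chromosome 16, 92391953 to 92466146, minus strand), rose from 11.6, 17.1 and 37.7 to 124, 97.1 and 109 FPKM (2.42, SE 0.31, adjusted p = 0.000552). The controls spread over a wide range with control 3 highest, and the TAC libraries lay close together above them. Rgs2, which dampens signalling through Gq, fell from 16.1, 14.9 and 22.1 to 5.02, 5.85 and 5.40 FPKM (-1.52, SE 0.16, adjusted p = 0.000174). Hdac4 and the transcription factor Mef2a fell by 1.11 and by 0.63 on the log2 scale, and the angiotensin receptor Agtr1a by 0.34. The 4 that fell became 2 without TAC 2 or control 1.

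Fatty acid genes fell in 17 of 40 tested members and rose in 0, with a median of -0.32. The 17 ranged from -2.95 to -0.46 and were Ces1d, Acot1, Acaa2, Slc27a1, Dgat2, Lipe, Acadm, Hadh, Fitm1, Decr1, Hadhb, Etfb, Cpt2, Eci1, Fitm2, Acot2 and Hadha. They take in uptake (Slc27a1), storage in droplets (Dgat2, Fitm1, Fitm2), lipolysis (Ces1d, Lipe), entry into the mitochondrion (Cpt2) and the steps of beta-oxidation (Acadm, Hadha, Hadhb, Hadh, Acaa2). Ces1d, a carboxylesterase (ENSMUSG00000056973, chromosome 8, 93166068 to 93197838, minus strand), had the lowest fold change of the protein-coding genes named. It went from 138, 88.9 and 85.9 to 10.6, 18.1 and 9.64 FPKM (-2.95, SE 0.36, adjusted p = 0.000417). Ces1d is also a liver gene. In the same control libraries the liver's most abundant secreted protein, Alb, was at 3.80, 4.15 and 3.49 FPKM against 0.0199, 0.0516 and 0 in TAC (-2.23). The part of liver RNA in the Ces1d difference was not tested. Acaa2, the last thiolase of the cycle, fell from 381, 476 and 432 to 191, 214 and 262 FPKM (-0.95, SE 0.16, adjusted p = 0.00303), and Hadh from 206, 241 and 258 to 143, 162 and 162 FPKM (-0.59). The thioesterase Acot1 fell from 9.65, 11 and 9.88 to 4.34, 3.71 and 5.35 FPKM (-1.04). Cpt1b, the entry enzyme of muscle, did not pass (0.04, adjusted p = 0.878). The 17 became 7 without TAC 1 or control 2, 10 without TAC 2 or control 3, 7 without rescaling and 9 with the 6 libraries alone, and 22 of the 40 lay lower in every TAC than in any control library.

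Among 20 genes of ketone body and branched-chain amino acid use, 1 rose and 7 fell (median -0.25). Bdh1, the first enzyme of ketone oxidation (ENSMUSG00000046598, chromosome 16, 31422280 to 31458901, plus strand), rose from 46.5, 68.0 and 42.4 to 156, 167 and 164 FPKM (1.65, SE 0.18, adjusted p = 0.000231). Its neighbour on the other strand is Gm15743. Ppm1k, the phosphatase that activates the branched-chain dehydrogenase, fell from 39.9, 34.9 and 37.8 to 14.3, 16.7 and 17.1 FPKM (-1.18, SE 0.11, adjusted p = 8.6e-05). Bckdhb, a subunit of that dehydrogenase, went from 33.5, 30.7 and 40.2 to 16.2, 15.2 and 17.8 FPKM (-1.03). Dbt, Acadsb, Mccc2 and Mut also fell.

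The tricarboxylic acid cycle and the respiratory chain gave few calls by this test. In the cycle 3 of 30 genes fell and 0 rose (median -0.20). These were the pyruvate dehydrogenase phosphatase Pdp2 (-0.82, adjusted p = 0.00713), Suclg2 (-0.44) and Sdha (-0.38, adjusted p = 0.0448), and the count was 1 without TAC 1 or control 3. Of 74 nuclear-encoded respiratory chain genes 1 fell, Cox7a1, from 1308, 1583 and 1509 to 937, 919.7 and 1175 FPKM (-0.54, adjusted p = 0.0445), and 0 rose (median -0.10). It was no longer called without TAC 1, TAC 2, control 2 or control 3, 2 genes fell without TAC 3, and 1 gene of the cycle rose without control 2. Quantile normalization called 11 genes of the cycle and 18 of the respiratory chain as lower. In 11 of the 30 cycle genes every TAC library lay below every control, and in 2 above. For the 74 respiratory chain genes these counts were 6 and 1. Over all tested genes the shares were 15.7% and 16.0%.

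Glucose genes were called higher in 12 of 37 and lower in 4, with a median of 0.30. Pfkp, the platelet-type phosphofructokinase (ENSMUSG00000021196, chromosome 13, 6579768 to 6648777, minus strand), rose from 15.5, 16.0 and 14.1 to 50.6, 59.5 and 58.0 FPKM (1.82, SE 0.16, adjusted p = 6.71e-05). Hexokinase 1, Hk1, rose from 35.1, 27.6 and 33.4 to 53.1, 52.1 and 59.5 FPKM (0.77). Pfkl, Gpi1, Gapdh, Pgam1, Eno1, the lactate carrier Slc16a3 and the glycogen genes Ugp2, Gyg, Phka1 and Ppp1r3c made up the rest. The 4 that fell were Pfkfb1, which makes the activator of phosphofructokinase (from 9.54, 4.78 and 4.80 to 1.39, 0.781 and 1.70 FPKM, -1.65), the phosphorylase kinase subunit Phkg1 (-1.56), the glycogen-targeting Ppp1r3a (-0.87) and Tbc1d4, a brake on glucose transporter traffic (-0.85). Fbp2, the muscle fructose bisphosphatase, was among the 12 protein-coding genes with the lowest fold changes, from 12.8, 14.3 and 12 to 2.59, 3.60 and 5.09 FPKM (-1.59). Without TAC 2 the 12 became 5, and without TAC 3 they became 6. Of 28 energy shuttles and metabolic regulators, Prkag2, a subunit of the AMP-activated kinase, rose (0.99), and the nuclear receptor Rxra (-0.59) and the deacetylase Sirt1 (-0.57) fell. Ppargc1a and Ppara did not pass (-0.30 and -0.31).

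**Figure D3:**
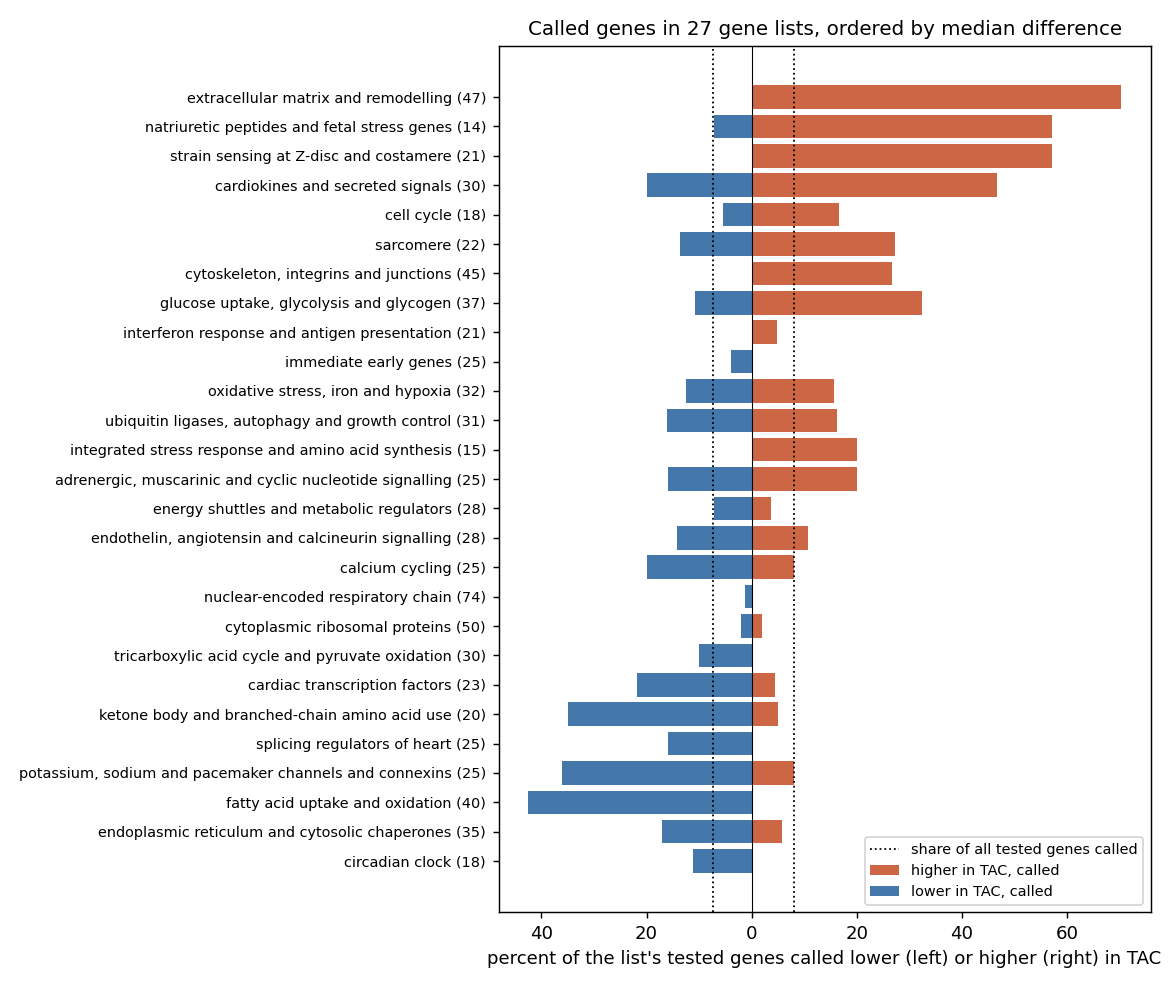
Percent of each list's tested genes (number in parentheses) that were called higher (bars to the right) or lower (bars to the left) in TAC, for 27 lists ordered by their median log2 fold change. Dotted lines mark the shares over all 11358 tested genes, 8.08% and 7.37%. The extracellular matrix bar reaches 70.2% higher, and the fatty acid bar 42.5% lower.

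Stress and time-of-day genes were uneven. Of 18 clock genes 2 fell, Hlf from 4.59, 3.56 and 3.38 to 1.23, 1.05 and 0.812 FPKM (-1.25) and Nr1d2 from 37.5, 36.0 and 21 to 10.1, 19.8 and 10.7 FPKM (-1.18), with a list median of -0.43. Tef was at 82.3, 51.3 and 23.0 FPKM in control and 21.7, 24.7 and 20.8 FPKM in TAC (-1.01, adjusted p = 0.0575), so control 3 lay among the TAC libraries. Per2 stood likewise, at 4.99, 6.38 and 1.41 FPKM and then 1.12, 2.14 and 0.990 FPKM (-1.0, adjusted p = 0.0649). Without control 3, 8 clock genes fell and 3 rose. The hour of collection is not labelled, and its part was not tested. Immediate early genes rose in 0 of 25 (2 without control 3), and Klf15 fell with overlapping groups (-0.82, adjusted p = 0.0236), a call lost without TAC 1, TAC 3, control 1 or control 2. Fos spanned 5.65, 38.6 and 236 FPKM in the controls, wider than its 51.3, 41.1 and 84.5 FPKM in TAC.

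Of 15 genes of the integrated stress response 3 rose. Gdf15, a secreted stress cytokine, went from 0.364, 0.593 and 1.36 to 5.92, 17.4 and 6.23 FPKM (2.5, SE 0.36, adjusted p = 0.00115), with TAC 2 well above the other two. Aldh18a1, the first enzyme of proline synthesis, rose by 0.98 and Nupr1 by 0.77. Among 35 chaperones 2 rose, both small heat shock proteins of muscle. Hspb7 went from 243, 233 and 233 to 538, 651 and 551 FPKM (1.29) and Hspb6 from 109, 133 and 151 to 255, 251 and 291 FPKM (1.02). Herpud1, Selenbp1, Hspe1, Pdia6, Hspd1 and Canx fell, 6 in all, which became 12 without control 1 and 3 without TAC 3 or control 2 (list median -0.35).

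In the oxidative stress, iron and hypoxia list 5 of 32 rose and 4 fell (median 0.21). Tfrc, the transferrin receptor that takes up iron, went from 12.6, 9.72 and 34.1 to 74.9, 41.8 and 71.9 FPKM (1.84, adjusted p = 0.0103), and the iron exporter Slc40a1 from 6.57, 5.95 and 3.44 to 1.91, 1.65 and 1.33 FPKM (-1.23, adjusted p = 0.00318). The ferritin chain Fth1 also fell (-0.47). The glutathione peroxidases Gpx3 and Gpx1 rose, Gpx3 from 23.9, 22.9 and 17.3 to 62.6, 93.6 and 54.9 FPKM (1.65), Srxn1 by 0.48 and Hif1a by 0.56, whereas Gstm1 (-0.63) and the mitochondrial dismutase Sod2 (-0.41) fell. The 4 that fell became 2 without any single TAC library or control 2, and 1 without control 3. Growth and breakdown genes were balanced, with 5 of 31 up and 5 down (median 0.12). Igf1r, the growth factor receptor, rose by 0.98, the kinase Mtor by 0.63, Eif4ebp1 by 0.65, Becn1 by 0.43 and Trim54 by 0.45, while Klhl38, Gadd45a, Foxo3, Pink1 and Akt2 fell (-1.15 to -0.46). The 5 up became 3 without TAC 3 or control 1, and the 5 down became 3 without TAC 1 and 2 without TAC 3 or control 2.

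Nuclear regulators of the heart fell more often than they rose, with 1 of 23 transcription factors up, 5 down and a median of -0.23. Hopx, a homeodomain cofactor, fell from 103, 125 and 146 to 43.2, 66.8 and 66.9 FPKM (-1.08, adjusted p = 0.00311) and has Hopxos on its other strand. Tbx5 fell from 9.68, 6.73 and 6.76 to 3.60, 4.14 and 3.44 FPKM (-0.87), and Mef2a, Six5 and Gata6 by 0.63, by 0.56 and by 0.38 on the log2 scale. Tbx20 rose from 20.8, 23.7 and 23.4 to 37.7, 33.5 and 37.4 FPKM (0.66). Of 25 splicing regulators 4 fell and 0 rose (median -0.29, 8 lower by quantile normalization, 1 higher without control 1). Rbfox1, which binds introns beside muscle exons, fell from 10.6, 9.98 and 9.57 to 3.55, 4.76 and 3.35 FPKM (-1.19, SE 0.14, adjusted p = 0.000401). Tra2b, Srsf7 and Mbnl2 were at -0.48, -0.49 and -0.38, and in 11 of the 25 every TAC library lay below every control.

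Secreted signals rose in 14 of 30 tested genes and fell in 6 (median 0.50). Tgfb2 rose from 1.07, 1.35 and 1.17 to 6.13, 7.5 and 8.67 FPKM (1.93, adjusted p = 0.000105), Tgfb1 and Tgfb3 also rose, and Ltbp2, a latent TGF-beta binding family member, went from 0.346, 0.498 and 0.413 to 4.63, 3.53 and 4.45 FPKM (1.87). Fstl1, a follistatin-like protein, rose from 6.18, 5.18 and 6.56 to 22.5, 19.0 and 17.9 FPKM (1.58), and Hbegf, a ligand of the EGF receptor, from 5.57, 5.64 and 6.29 to 13.1, 32.3 and 25.3 FPKM (1.76). Angpt1, which steadies vessels, fell from 6.62, 7.30 and 9.11 to 2.66, 2.31 and 2.77 FPKM (-1.27), as did Fgf2, Fgf9, Fgf13, Fgf16 and Apln. The 6 that fell became 3 without TAC 2, TAC 3, control 2 or control 3. The receptor Tnfrsf12a, whose ligand is the cytokine TWEAK, rose from 11.4, 31.1 and 39.0 to 106, 156 and 154 FPKM (2.45, SE 0.37, adjusted p = 0.0014).

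The extracellular matrix list held the highest share of calls, with 33 of 47 tested genes up, 0 down and a median of 1.08. It is listed here beside the fibroblast markers, since matrix genes are typical of that cell type. Postn, the matricellular protein periostin (ENSMUSG00000027750, chromosome 3, 54361109 to 54391037, plus strand), rose from 3.84, 4.11 and 5.69 to 43.1, 50.9 and 53.2 FPKM (log2 fold change 3.18, SE 0.15, adjusted p = 1.37e-06). Cilp, another matricellular protein, rose from 0.472, 0.386 and 0.531 to 8.03, 11.4 and 9.48 FPKM (2.85, SE 0.21, adjusted p = 1.49e-05). Col8a1 went from 1.89, 1.60 and 1.25 to 8.99, 11.2 and 10.7 FPKM (2.14), and Thbs4 from 0.620, 0.874 and 0.772 to 5.60, 5.38 and 4.51 FPKM (1.81). The fibrillar collagen gene Col3a1 was at 12.4, 11.2 and 27.7 FPKM in control and 71.7, 66.5 and 53.9 FPKM in TAC (1.95), and Col1a1 and Col1a2 rose by 1.81 and 1.39. The crosslinkers Lox, Loxl1, Loxl2 and Loxl3 and the inhibitor Timp1 were also among the 33. With a mean of at least 5 FPKM required, 17 genes of the list were called.

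Fibroblast markers behaved unevenly beside it. Of 13 tested, 7 rose, namely Col1a1, Col1a2, Col3a1, Mfap4, Mfap5, Pi16 and Pcolce, and 5 of the marker genes are also in the matrix list. The lineage markers Pdgfra (4.55, 2.07 and 3.31 FPKM, then 3.23, 4.01 and 3.25 FPKM, 0.10), Dcn, Lum, Gsn, Ddr2 and Dpt were not called, and all 6 had overlapping groups. Without the shared genes the fibroblast sum was 90.0 to 190 FPKM in control and 141 to 200 FPKM in TAC, overlapping ranges. Control 2 had the lowest fibroblast sum, 156 FPKM. Whether cells other than myocytes carry the matrix RNA was not tested.

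Cytoskeleton, integrin and junction genes rose in 12 of 45 and fell in 0 (1 without control 1, median 0.30). The tubulins Tubb2a (4.54, 8.47 and 8.81 to 26.6, 29.1 and 29.9 FPKM, 1.88) and Tubb2b (1.35) share 56.4% and 45.9% of their 31-base words with other genes, so the division of reads between them is uncertain. The integrins Itga9 and Itga5 rose by 1.27 and 1.20 and the focal adhesion protein Zyx by 1.04, and Tln1, Vcl, Lmna, Synm, Dsp, Pkp2 and Tuba1a were called as well. Of 18 cell cycle genes, the inhibitor Cdkn1a and the cyclins Ccnd2 and Ccnd1 rose (1.45, 0.97 and 0.57). Another inhibitor, Cdkn1b, fell (-0.73). The count of 3 that rose became 1 without TAC 1. Interferon genes gave 1 call in 21, Ifi27l2a (0.90), and ribosomal protein genes 1 up and 1 down in 50, Rpl3 (0.63) and Rpl5 (-0.46). The interferon count was 2 without TAC 2. Without TAC 3, 9 ribosomal genes fell and without control 1, 2 did, against 0 without TAC 1, TAC 2, control 2 or control 3, and 0 rose without TAC 3, control 1 or control 2. The macrophage genes Ctss and C1qc and the endothelial Plvap rose (0.62, 0.63 and 1.51), as 2 of 18 and 1 of 16 tested markers. The macrophage count was 0 without control 1 or control 2, 1 without any single TAC library and 5 without control 3. The endothelial count was 4 without TAC 2, 3 without control 1 and 2 without control 3.

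Several of the 12 highest and 12 lowest protein-coding genes belong to none of these roles. Fam198b rose from 1.75, 2.55 and 3.08 to 17.2, 17.9 and 20.9 FPKM (2.52), and the water channel Aqp8 from 0.463, 1.51 and 0.990 to 9.29, 11.8 and 8.14 FPKM (2.45). The galectin Lgals4 fell from 42.7, 21.7 and 21.2 to 6.45, 6.72 and 6.47 FPKM (-1.89), the orphan receptor Gpr22 from 19.3, 13.7 and 15.7 to 4.58, 2.65 and 6.19 FPKM (-1.70), and the phospholipase Pla2g5 from 15.5, 18.1 and 19.8 to 4.92, 5.59 and 4.12 FPKM (-1.68). Pdzd9 was at -1.57, and the predicted genes Gm10800 and Gm10801 at -1.62 and -1.58, of which the Gm10800 call was lost without TAC 1. The cytokine Il15 (-1.58, adjusted p = 0.0405) lost its call under 8 alternatives.

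Isoform shares, the part of a gene's FPKM that each transcript takes, changed in far fewer cases. Of 11726 tested transcripts in 3718 genes, 54 changed (0.461%), 29 upward (0.247%) and 25 downward (0.213%), in 43 genes, and the groups did not overlap in any of the 54. Of the 43 genes 12 also had a called level and 31 did not, and 10 had transcripts called in both directions. Cufflinks divides reads between overlapping isoforms, so shares are estimates. With the 6 libraries alone no share passed (smallest adjusted p 0.0629), although 1378 transcripts had an unadjusted p under 0.05 against 1529 in the fit of 10 libraries. All 54 kept their sign there, which was fixed in advance. The difference between the group means does not depend on the knockout libraries. The count was 12 without TAC 1, 11 without TAC 3, 19 without TAC 2, 23 without control 1 and 20 without control 3. A panel of muscle isoform genes gave calls in 5 of 57 genes, namely Fhl1, Pdlim5, Snap23, Ndrg2 and Ktn1. Over all genes tested for shares, 43 of 3718 had a call. The panel was chosen with earlier results of these data known, so the comparison is not an independent test.

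The largest called change of share was in Fhl1. Fhl1-204 took 19.7, 10 and 20.1% of the gene in control and 69.1, 74.8 and 78.5% in TAC (57.5 points, limma on the arcsine square root, adjusted p = 0.0038). Fhl1-201 went the other way, from 62.9, 80.4 and 69.4% to 14.4, 15.1 and 11.5% (-57.2 points). In level, Fhl1-204 was at 6.22, 2.86 and 4.93 FPKM in control and 113, 115 and 237 FPKM in TAC, whereas Fhl1-201 was at 19.8, 22.9 and 17.0 FPKM and 23.6, 23.1 and 34.6 FPKM. Every TAC library held far more Fhl1-204 than any control, whereas Fhl1-201 moved much less. This form starts within the gene and codes for 296 codons against 280, through these coding pieces absent from Fhl1-201, which are shown because they separate the forms.
Fhl1-204 only, chrX:56779773-56779794, plus strand: atggcttctcaaagacactcag
Fhl1-204 only, chrX:56787989-56788014, plus strand: gtccctccagctataaggtgggcacc
The 250 bases before the RefSeq start nearest to Fhl1-204 hold 1 CArG box (capitals), a match found in 1.47% of promoter windows. NFAT core, MEF2, TEAD, GATA, AP-1 and CArG motifs were all searched in each window. The rate of a match to any of them is higher than the rate of 1 motif and was not computed.
Fhl1 internal start, chrX:56779433-56779682, plus strand: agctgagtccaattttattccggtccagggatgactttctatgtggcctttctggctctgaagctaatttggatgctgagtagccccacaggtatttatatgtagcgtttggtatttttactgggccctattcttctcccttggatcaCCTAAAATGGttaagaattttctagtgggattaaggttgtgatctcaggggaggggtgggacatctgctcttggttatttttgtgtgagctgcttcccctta

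Synpo2l changed alike. Synpo2l-203 rose from 10.5, 11.5 and 27.6% to 61.7, 72.9 and 75.4% of the gene (53.5 points, adjusted p = 0.00468), and Synpo2l-201 fell from 61.0, 58.7 and 47.2% to 25.6, 17.2 and 15.4%. Synpo2l-202 fell from 28.5, 29.7 and 25.2% to 12.7, 9.93 and 9.25%. The level of Synpo2l-203 was 1.82, 2.23 and 7.03 FPKM in control and 56.0, 98.4 and 115 FPKM in TAC, and that of Synpo2l-201 10.6, 11.3 and 12 FPKM and 23.2, 23.2 and 23.5 FPKM. Control 3 was the highest of the controls for Synpo2l-203 and still far below the TAC libraries. Synpo2l-203 begins at an internal start and codes for 749 codons against 975 in Synpo2l-201, so that its first coding piece replaces the start of the long form.
Synpo2l-203 first coding piece, chr14:20664397-20664481, minus strand: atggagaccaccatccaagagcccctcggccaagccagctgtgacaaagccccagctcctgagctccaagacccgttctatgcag
Synpo2l-201 first coding piece, chr14:20668100-20668195, minus strand: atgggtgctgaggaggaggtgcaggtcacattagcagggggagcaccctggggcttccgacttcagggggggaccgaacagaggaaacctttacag
The 250 bases before this internal start hold 1 MEF2 match (CTAAAAATA, found on the other strand, in capitals), which 0.469% of promoter windows hold. The window before the start of Synpo2l-201, not shown, holds 1 NFAT core match (GGAAAA), which 20.4% of windows hold.
Synpo2l internal start, chr14:20664575-20664824, minus strand: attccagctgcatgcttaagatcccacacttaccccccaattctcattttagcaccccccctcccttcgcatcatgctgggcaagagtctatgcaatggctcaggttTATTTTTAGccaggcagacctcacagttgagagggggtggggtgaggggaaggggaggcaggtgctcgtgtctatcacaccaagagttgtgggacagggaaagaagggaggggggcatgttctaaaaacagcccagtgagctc

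Rcan1 has a comparable pair of starts but its shares did not pass the test. Rcan1-201, the short form, took 21.6, 44.8 and 66.6% of the gene in control and 87.2, 87.4 and 82.3% in TAC (adjusted p = 0.0927). All TAC libraries lay above the controls, which were widely spread. Its level went from 2.29, 7.42 and 24.7 FPKM to 107, 81.5 and 94.0 FPKM, while Rcan1-202 was at 8.32, 9.14 and 12.4 FPKM and 15.7, 11.8 and 20.2 FPKM. The short form codes for 198 codons and the long form for 251. The window before the short form's start, shown because that form carries most of the Rcan1 RNA in TAC, holds 2 NFAT core matches (GGAAAA) and 1 AP-1 match (TGANTCA), letters held by 20.4% and 6.75% of windows. The window before the long form's start holds no match of the motifs searched.
Rcan1-201 first coding piece, chr16:92399896-92399982, minus strand: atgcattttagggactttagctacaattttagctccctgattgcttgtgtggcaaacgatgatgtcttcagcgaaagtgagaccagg
Rcan1 internal start, chr16:92400079-92400328, minus strand: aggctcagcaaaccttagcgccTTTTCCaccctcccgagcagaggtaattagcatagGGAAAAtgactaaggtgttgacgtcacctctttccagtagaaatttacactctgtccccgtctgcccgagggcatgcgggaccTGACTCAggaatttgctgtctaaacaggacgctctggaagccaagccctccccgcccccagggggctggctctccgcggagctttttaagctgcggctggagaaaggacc

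**Figure D4:**
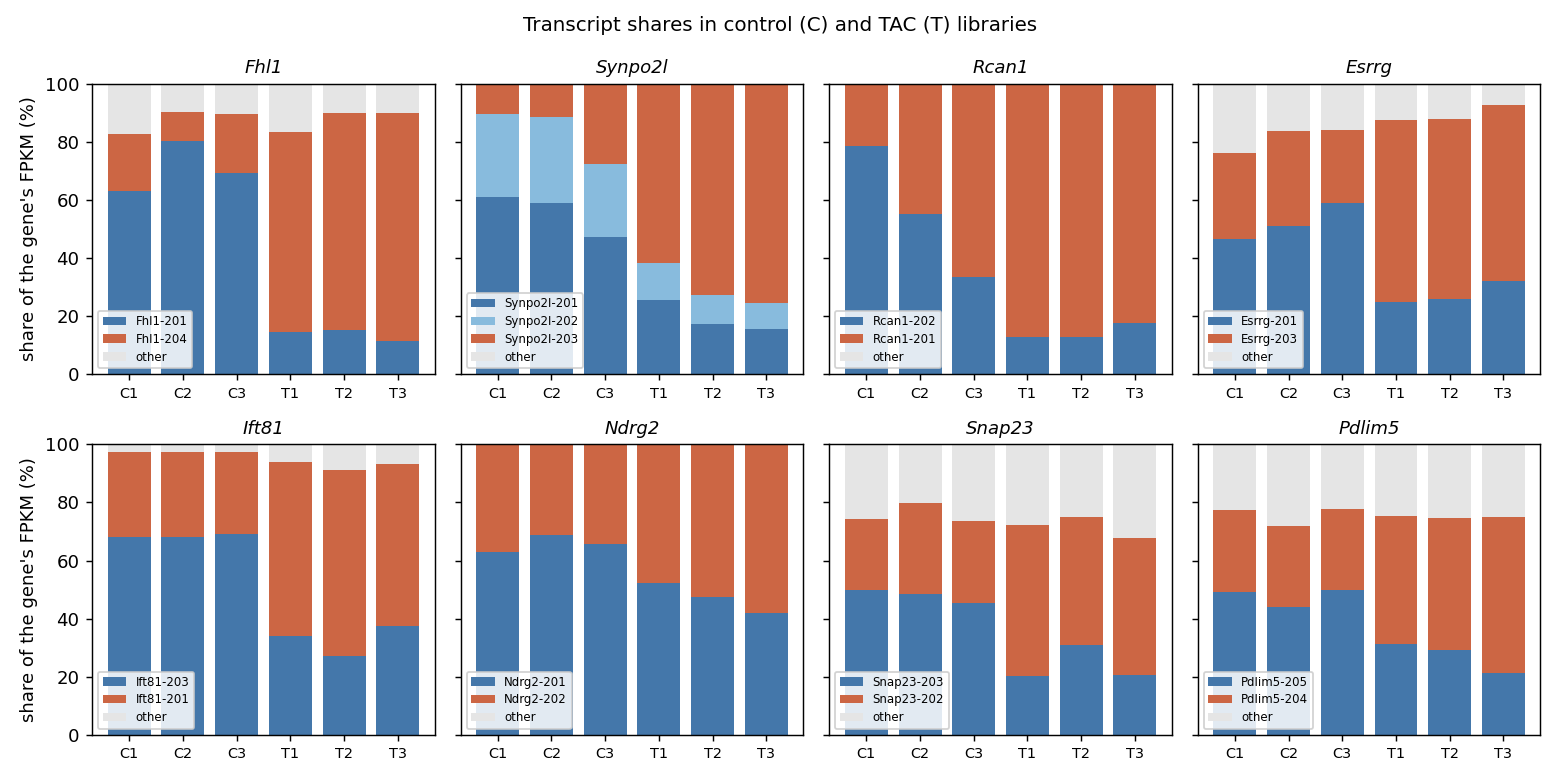
Stacked bars of the share of a gene's FPKM (percent) taken by its named transcripts and by all others, for 8 genes, with 1 bar for each control (C1 to C3) and TAC (T1 to T3) library. Fhl1-204 lies at 10 to 20.1% in control and 69.1 to 78.5% in TAC, and Synpo2l-203 at 10.5 to 27.6% and 61.7 to 75.4%.

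Other exchanges occurred in genes whose total did not pass the test. Esrrg, the estrogen-related receptor gamma that drives oxidative genes, had Esrrg-203 at 29.6, 32.8 and 25.1% in control and 62.5, 62.1 and 60.5% in TAC (32.5 points, adjusted p = 0.0109). Esrrg-201 fell from 46.4, 50.9 and 59.0% to 24.9, 25.8 and 31.9%, and the gene level did not pass (-0.22, adjusted p = 0.288). The forms code for 435 and 458 codons. The window before the start of Esrrg-203 holds 1 NFAT core, 1 TEAD and 1 AP-1 match (letters in 20.4%, 12.6% and 6.75% of windows), and that of Esrrg-201 none. Snap23, a membrane fusion protein, had Snap23-203 at 50.0, 48.5 and 45.4% and then 20.4, 30.9 and 20.7% (-24.0 points, adjusted p = 0.041), and Snap23-202 at 24.2, 31.3 and 28.2% and then 51.9, 44.2 and 47.2%. Ndrg2-201 fell from 62.8, 68.8 and 65.7% to 52.1, 47.5 and 41.9% with Ndrg2-202 as its mirror (adjusted p = 0.0426). In Pdlim5, a Z-disc gene whose level rose, Pdlim5-204 went from 28.3, 27.8 and 27.8% to 44.1, 45.4 and 53.9% and Pdlim5-205 from 49.2, 44.0 and 49.9% to 31.2, 29.3 and 21.2%. The Ndrg2 and Pdlim5 forms differ in coding sequence by single short pieces, shown because they are what the exchange adds or removes.
Ndrg2-201 only, chr14:51911086-51911127, minus strand: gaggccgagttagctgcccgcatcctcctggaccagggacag
Pdlim5-205 only, chr3:142306284-142306298, minus strand: taaccctggcactgt
The calls of the Snap23, Ndrg2 and Pdlim5 transcripts were lost under 9 to 11 alternatives. Those of Esrrg-201 and Synpo2l-202 were lost under 10, among them the omission of any single control or TAC library, and that of Esrrg-203 under 4, among them the omission of TAC 1 or TAC 3. Those of Fhl1-204, Fhl1-201, Synpo2l-203 and Synpo2l-201 were lost under 2, the 6 libraries alone and the replicate block.

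Ift81, an intraflagellar transport gene, fell in level (-1.40) and its retained-intron transcript Ift81-203 fell from 68.2, 68.3 and 69.2% to 34.2, 27.2 and 37.5% (adjusted p = 0.0043), with Ift81-201 at 29.3, 29.2 and 28.2% and then 59.9, 63.9 and 55.6%. Fbxo30-201 rose from 41.1, 55.5 and 38.8% to 74.0, 75.2 and 76.8%, Man1a-203 from 14.7, 23.3 and 21.4% to 39.0, 47.2 and 45.2%, and Lypla1-204 from 8.53, 11.6 and 9.48% to 30.9, 25.2 and 30.0%. Fbxo30-201 and Fbxo30-202 code for the same length, as do Man1a-201 and Man1a-203. Ktn1-221 was at or near 0 in all 3 controls and at 10.1, 7.28 and 15.7% in TAC. The most abundant transcript was another one in all TAC than in all control libraries in 54 genes, of which 10 had a called transcript, among them Eps15 and Cyfip1. Eps15-202 fell from 51.4, 53.7 and 53.5% to 27.2, 30.1 and 30.4%, and Cyfip1-203 rose from 12.6, 16.7 and 20.1% to 34.8, 39.2 and 43.2%. The call of Cyfip1-203 was lost under 10 alternatives, including without any single control or TAC library. Those of Fbxo30-201 and Man1a-203 were lost without any single library except control 2, that of Lypla1-204 without TAC 1, TAC 3, control 1 or control 3, and that of Ktn1-221 without TAC 1 or TAC 3. The calls of Ift81-203 and Eps15-202 held without each of the 6. Atp2a2-202, the main pump form, was at 90.9, 90.0 and 90.2% and 89.0, 91.0 and 90.6%. Pkm-201 was at 3.99, 4.14 and 3.74% and 7.48, 8.08 and 9.14% without passing (adjusted p = 0.239).

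One pattern of 3' ends also differed between the groups. It concerns 351 pairs of transcripts with the same coding sequence whose 3' ends differ by at least 500 nt, chosen after the values were seen. They come from 267 genes, so some transcripts count in several pairs. The longer form took a lower percent of the pair's FPKM in the TAC means in 257. Its median percent of the pair was 57.8, 53.2 and 52.9% in control and 47.9, 47.2 and 44.9% in TAC. The groups were apart with the longer form lower in 86 pairs and higher in 16. Called transcripts among these pairs include those of Fbxo30, Man1a, Aebp2 and Gclm. The source of this pattern and its part in the share results above were not tested.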

How the data were processed

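The deposited files give the FPKM of each annotated transcript of mm10, for which the authors used TopHat2 2.1.0, Bowtie2 and Cufflinks 2.2.1, per the submitters' processing notes, which also name Cuffdiff. A Cufflinks score, deposited in a column of its own, was not used. Per the labels' protocols, read pairs of 100 bases were sequenced on a HiSeq 2000. The strand setting of counting is not given in the sources used here.

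Transcript FPKM was summed by gene ID. Gene IDs at 0 in at least 1 library were set apart if the median of their values above 0 was at least 100 FPKM (22, among them Ttn, mt-Atp6 and mt-Co3). Genes whose longest transcript is under 300 nt, where FPKM is unstable, were set apart too. Each library was divided by a median-of-ratios factor ( 0.912 to 1.10 over all 10). Levels were tested as log2(FPKM + 1) with limma 3.58.1 in R 4.3.3, with a variance trend, two-sided, over 10 libraries of 3 groups. Shares were tested on the arcsine square root, for genes with a mean of at least 5 FPKM, at least 1 FPKM in every library and 2 or more transcripts with a mean share of at least 5%. Gene types and exons came from GENCODE M21 (GRCm38), in which 45038 of the 45882 gene IDs were found, and promoters from RefSeq.

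Named genes are the 12 highest and 12 lowest called protein-coding genes with non-overlapping groups, the 4 tested members with the lowest adjusted p in every list (more where a small count needed all its members), all members of the natriuretic peptide list and, for shares, the genes called both ways, the isoform panel and dominant transcripts that differ. Other names complete a count or were chosen after their values were seen. The comparison, the lists and their members were chosen with earlier results of these data known. Alternatives were other pseudocounts, filters, scalings and transforms, a sex term, a replicate block and each library left out. Some members that count in a list are not reported here by name.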

Additional observations from a re-analysis of the deposited data

How the results depend on the processing

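No called direction turned under any alternative run, and of the values of named genes under alternatives 3307 stayed on their side of the threshold, 279 lost the call and 59 gained it. The main run called 1755 genes, and each alternative gave its own total. These totals were 1167 with a mean of at least 5 FPKM (540 lower) and 1153 with the 6 libraries alone (488 lower). Without rescaling 519 were lower. Leaving out 1 library gave 1236 to 1428 genes, 679 to 781 higher and 557 to 665 lower. The main run called 54 shares. A gene mean of at least 2 FPKM gave 21 (10 higher, 11 lower), and at least 20 FPKM gave 126 (72 and 54). A sex term gave 27 (15 and 12), and the 6 libraries alone 0 (0 and 0). Leaving out 1 library gave 11 to 68 shares, 5 to 43 higher and 6 to 25 lower. Where this left a group with fewer libraries, the spread was pooled over all groups. With the replicate number as a block, fitted to the 6 libraries alone, 1361 genes (755 higher, 606 lower) and 0 shares (0 higher, 0 lower) were called. For the shares the smallest adjusted p was 0.349, and 1337 had an unadjusted p under 0.05 by limma. Same-numbered libraries deviated together with correlations of 0.33, -0.04 and 0.21, and not every library correlated best with its own number. Deviations within a group depend on each other, so these values cannot tell whether the numbers pair the mice. Other scalings split the calls as 66.2% higher without rescaling and 48.0% by quantile normalization, against 52.3%. List counts moved by over 1.5 times in 198 cases and by less in 1322; the causes were not tested. Relative coverage per FPKM is the only measure of depth, so a miss in a low gene does not show that it did not differ.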

Other observations

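The estrogen receptor gene Esr1 was listed among the abundant RNAs of these myocytes, at 2960.0, 2917 and 1306 FPKM in control and 1657, 596 and 416 FPKM in TAC (chosen after its values were seen). It was called lower (log2 fold change -1.59, adjusted p = 0.0405, limma) although TAC 1 lay above control 3. Between 74.7 and 77.2% of it was Esr1-208, a transcript of 5 exons and 1019 nt at the 3' side of the gene (chromosome 10, 4936526 to 5001656, mm10), and 22.4 to 24.8% was Esr1-203. The ligand-binding part of this receptor is used in tamoxifen-inducible Cre proteins. The labels name no Cre or transgene, and the source of this RNA was not tested.

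Alb and other liver genes were seen in the controls in particular. Alb was at 3.49 to 4.15 FPKM in the 3 controls, at 0 to 0.0516 FPKM in TAC and at 0 to 0.0219 FPKM in the 4 knockout libraries. The liver list without Trf summed to 11.5 to 23.9 FPKM in control, 3.48 to 5.80 FPKM in TAC and 2.18 to 6.37 FPKM in the knockout libraries.

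Over all 3718 genes tested for shares, the longest tested transcript took a lower share in the TAC means in 2169. The groups were apart with its share lower in 517 genes and higher in 246. Its median share was 44.7, 45.0 and 45.4% in control and 43.4, 43.2 and 43.7% in TAC.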
